A study of Mus musculus with 28 samples.

Results

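Some chromatin regions of mouse embryonic fibroblasts were listed as accessible after 8 days with a mix of small molecules and in none of the MEF14 cultures given doxycycline, which turns on a transgene of the transcription factor MyoD. These FRG-only regions were chosen by the peak lists themselves: a region had to be called in both libraries of the fibroblasts given the small molecules alone, and in none of 22 comparison libraries from 11 groups. The rule kept 29249 of 255567 merged regions, or 11.4%. They made up 25.2% of the 115993 regions that both libraries of the small molecule cells called.

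Chromatin accessibility was measured by ATAC-seq, in which a transposase cuts and tags DNA that is not packed into nucleosomes, in 14 groups of 2 libraries each. The MEF14 fibroblasts carried Col1a1-tetO-MyoD with Rosa-rtTA, a MyoD transgene that doxycycline turns on, and Pax7-nGFP, a green reporter of Pax7, the marker of muscle stem cells. They came from E13.5 embryos, and all MEF14 groups, the untreated one included, shared these alleles. The FRG group (label MEF14_FRG_Day8) was read as cells given forskolin, RepSox and the GSK3β inhibitor CHIR99021 for 8 days without doxycycline. The conversion medium held 5 μM forskolin, 5 μM RepSox, 3 μM CHIR99021, 10 ng/ml basic FGF and 2 μg/ml doxycycline per the labels' protocols, which do not describe a medium for FRG alone. The comparison groups were day 0 fibroblasts in standard serum medium, cells with doxycycline and the small molecules (Dox+FRG) at days 2, 4, 6 and 8, GFP-labelled Dox+FRG cells of days 8 and 10, cells on days 4 and 8 of doxycycline without small molecules (Dox), and quiescent and activated satellite cells. Satellite cells came from adult Pax7-nGFP mice of 10 to 12 weeks. The medium of Dox cells shared its serum replacement and basic FGF with the conversion medium, and day 0 medium had neither. A further line, MEF10, also from E13.5 embryos, came at day 6 as MyoD+FRG and as MN+FRG. It was recorded with the same concentrations of small molecules and basic FGF, and without one for doxycycline. The genotype of MEF10 and the meaning of MN are not given in the labels. The rule used none of the MEF10 calls, though the MEF10 lists other than MyoD+FRG replicate 2 entered the merge that set the regions. Whether replicate libraries were made from different cultures is not stated, so their spread may be technical.

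Forskolin activates adenylyl cyclase and raises cyclic AMP, which acts through protein kinase A on CREB-family transcription factors. RepSox inhibits the type I receptor of TGF-β and so lowers Smad signalling, which maintains the contractile, matrix-producing state of fibroblasts. CHIR99021 inhibits GSK3, which stabilises β-catenin and activates TCF/LEF target genes of the Wnt pathway. MyoD is a basic helix-loop-helix factor that binds E-box sequences and can open closed chromatin at muscle genes. Small molecules of these classes are widely used to ease changes of cell identity. The lists give positions in mm9, and no gene names, promoters or sequences are given for the regions, because the annotation at hand was of another build.

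The FRG lists stood apart in length and in peak width. They held 134997 and 133267 peaks, against 37910 to 130916 in the 22 comparison lists. Most peaks of a list shared 1 width, which was 61 and 63 bp in the FRG lists, 78 to 88 bp in the Dox lists, 111 and 123 bp in the MEF10 MN+FRG lists and 153 to 205 bp in the others. MEF10 MyoD+FRG replicate 2 was the exception. Its most common width was 500 bp and its median 722 bp, and it was kept out of the merge and is given below only beside its replicate. Sequencing depth is unknown from the lists, so list length, peak width and treatment cannot be told apart for the count of FRG-only regions itself.

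Regions called in both FRG libraries were most numerous at the ends of the scale of sharing. The 29249 FRG-only regions were called in 0 of the 22 comparison libraries, 7410 regions were called in exactly 1, and 15236, or 13.1%, were called in all 22. Between these ends, each number of libraries from 2 to 21 held 2275 to 7163 regions. On the other side of the rule, 22746 regions were called in 1 FRG library and in no comparison library. These counts follow from the values that chose the regions and carry no test.

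**Figure D1:**
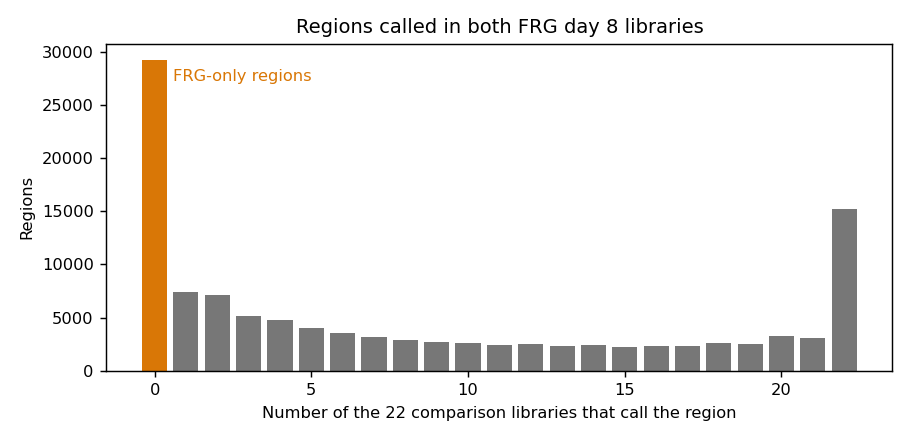
Number of regions called in both FRG day 8 libraries (y axis) by how many of the 22 comparison libraries also called them (x axis). The orange bar holds the 29249 FRG-only regions, and the bar at 22 holds 15236 regions.

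The FRG libraries agreed less on these regions than on others. Of 40936 regions that FRG replicate 1 called and no comparison library did, replicate 2 also called 71.5%. In the other direction 72.6% of 40308 were shared. For regions called in at least 1 comparison library the same shares were 94.1% and 95.1%. The Jaccard index, the shared regions over those called in either library, was 0.563 without and 0.897 with a call in a comparison library.

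FRG cells had 53195 regions that both libraries and no day 0 library called, which is 20.8% of all merged regions. Of these regions opened over day 0, 55.0% were FRG-only. Dox libraries called 33.1% of them in at least 1 library, Dox+FRG libraries 29.6% and satellite cell libraries 17.8%, with 10.9% called in all 3 kinds. A further 10.5% were shared with Dox libraries alone and 6.87% with Dox+FRG libraries alone, while 2.99% were shared with satellite cells alone. The rule used these same calls, so the shares describe the set and support nothing further.

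Most FRG-only regions rested on peaks of the most common width. Peaks wider than that are called extended here, and width is the sole measure of a peak that the lists hold besides its place. In 21924 FRG-only regions, or 75.0%, neither FRG peak was extended, in 3883 or 13.3% exactly 1 was, and in 3442 or 11.8% both were. Among the 86744 shared FRG regions, those also called in at least 1 comparison library, 35.1% had an extended peak in both FRG libraries. The median region was 105 bp wide when FRG-only and 439 bp when shared, where a merged region also spans the peaks of the other lists. FRG-only regions covered 6.15 Mb and shared FRG regions 56.2 Mb.

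The FRG-only share fell with the width of the FRG peaks. It was 33.3% of the 65875 regions in which neither FRG peak was extended and 23.9% where 1 was. Where both were extended it was 16.0% for a smaller peak under 300 bp, 11.3% from 300 to 599 bp, 8.13% from 600 to 999 bp and 4.29% from 1000 bp. Even the widest class held 218 FRG-only regions, and the largest smaller peak reached 2665 bp.

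MEF10 MN+FRG cells, whose calls the rule did not use, called a part of the FRG-only regions. MN+FRG replicate 1 called 5391 of 29249, or 18.4%, and replicate 2 called 5542, or 18.9%, a mean of 18.7% ± 0.365 (SD, n = 2). Of all merged regions the same libraries called more, 35.8% and 36.1%. Both libraries called 3763 FRG-only regions, or 12.9%, while the share over all merged regions was 30.6%. FRG-only regions were thus called less often than the average region of the series, which includes regions that most libraries share. The merge also took in the MN+FRG lists themselves, so all merged regions include any that only these lists called. The 2 MN+FRG libraries called 7170 FRG-only regions between them, of which 52.5% were called in both. Of the regions that either called, both called 85.3% in the shared FRG set and 74.2% over all merged regions. Along the rule's edge, MN+FRG called 39.4% ± 0.219 of the regions with exactly 1 comparison library, 76.4% ± 0.0677 of the shared FRG regions and 4.72% ± 0.187 of the regions with 1 FRG library and no comparison library (SD, n = 2 each). Of these sets, the regions that a single FRG library called had the lowest share in both MN+FRG replicates.

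MEF10 MyoD+FRG cells called few of them. MyoD+FRG replicate 1 had 49 FRG-only regions, or 0.168% (95% exact binomial interval 0.124 to 0.221%, counting error only), against 14.4% of all merged regions. Its list was the shortest of all, with 37301 peaks, and it called 34.1% of the shared FRG regions. Shared FRG regions had an extended peak in both FRG libraries in 35.1% of cases, against 11.8% of FRG-only regions. The part of list length in the MyoD+FRG shares was not tested. Replicate 2, whose wide peaks covered 92.9 Mb, called 2308 FRG-only regions, or 7.89%, against 36.6% of all merged regions. Both MN+FRG libraries but not MyoD+FRG replicate 1 called 3733 FRG-only regions, or 12.8%, where the background over all regions was 18.4%. All 3 of these libraries called 30 FRG-only regions, or 0.103%, against 12.2% of all merged regions. MyoD+FRG replicate 1 without either MN+FRG library called 10, or 0.0342%, against 1.47% of all merged regions. No library of MEF10, MyoD+FRG replicate 2 included, called 20926 FRG-only regions, or 71.5%, against 48.1% of all merged regions.

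A set of Dox-only regions gives a comparison inside each MEF10 list, where list length is the same on both sides. Dox-only regions were the 11556 called in both Dox day 8 libraries and in no day 0, satellite cell, FRG or Dox+FRG library. The sets are not matched in other ways. Dox day 4 calls were allowed in Dox-only regions and barred from FRG-only regions. Peak width differed too. Both Dox day 8 peaks were extended in 348 of 11556 Dox-only regions, and both FRG peaks in 3442 of 29249 FRG-only regions. MN+FRG replicate 1 called 5.94% of Dox-only regions and replicate 2 called 6.33%. FRG-only regions were thus 3.10 and 2.99 times as often called as Dox-only regions in these libraries, a difference of 12.5 and 12.6 percentage points. With FRG replicate 1 left out of the rule the mean difference was 7.68 points, and with FRG replicate 2 left out 8.16 points. MyoD+FRG turned the other way, with 0.614% of Dox-only regions against 0.168% of FRG-only regions in replicate 1. The difference of FRG-only minus Dox-only was -0.447 points in MyoD+FRG replicate 1 and -3.08 points in replicate 2. All MN+FRG differences lay above all MyoD+FRG differences (2 libraries against 2, two-sided exact permutation test, p = 0.333, the smallest this design allows). With regions extended in both libraries of their own set, MN+FRG called 27.1% of 3442 FRG-only regions on average and 6.32% and 8.33% of 348 Dox-only regions.

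The share called in MN+FRG grew with the width of the FRG peaks, and within each width class FRG-only regions stayed below the shared ones. MN+FRG called 17.2% ± 0.197 of FRG-only regions without an extended peak and 37.4% ± 0.973 of the 218 whose smaller peak reached 1000 bp (SD, n = 2 each). For shared FRG regions these shares were 68.6% ± 0.230 and 92.9% ± 0.0873. Regions with exactly 1 comparison library lay between, at 37.1% ± 0.416 and 48.0% ± 5.55. In the widest class replicates of that middle set were at 52.0% and 44.1%, and those of the FRG-only set at 36.7% and 38.1%.

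**Figure D2:**
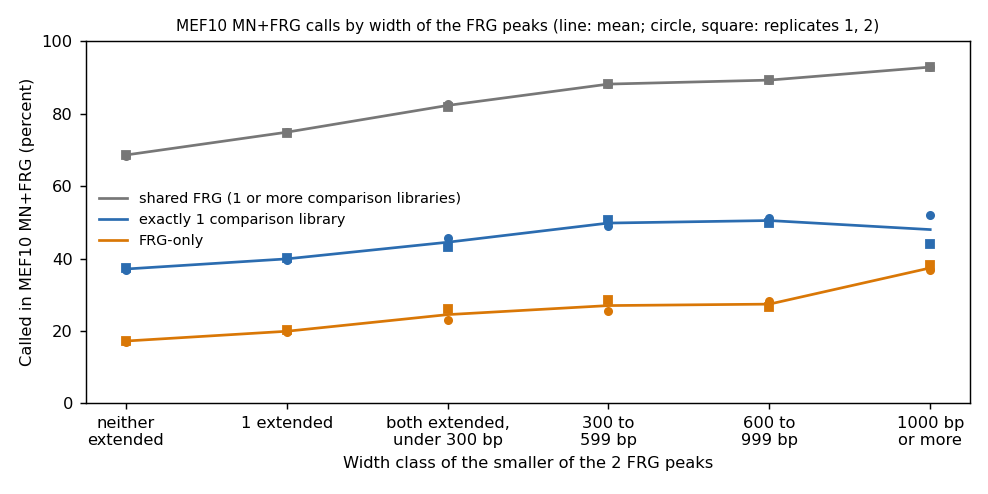
Percent of regions called in MEF10 MN+FRG libraries (y axis) by the width class of the smaller of the FRG peaks (x axis), for FRG-only regions, regions with exactly 1 comparison library and shared FRG regions. Lines join the means and points are the replicates. The FRG-only line runs from 17.2% to 37.4% and lies below the others in each class.

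To see which MEF14 and satellite cell groups came nearest to sharing these regions, each comparison group was left out of the rule in turn, and its libraries were scored on the regions chosen without it. Such a region is called in both FRG libraries and in no library of the other 10 comparison groups. Day 0 fibroblasts called 9.16% and 7.96% of the 33084 regions so chosen. Dox day 8 libraries called 5.70% and 9.17% of 32763. MN+FRG, at 18.4% and 18.9% of the FRG-only regions, lay above every library of the 11 comparison groups. Its mean was 2.18 times that of day 0 and 2.51 times that of Dox day 8. These scores are not alike, since related groups stayed in the rule for each comparison group but not for MN+FRG. In the common set described below, chosen without any doxycycline library, the MN+FRG mean was 1.71 times that of Dox day 8.

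Along the Dox+FRG course the mean shares scored in this way were lower at each later day. They were 4.54% and 1.47% at day 2, 0.695% and 0.173% at day 4, 0.262% and 0.221% at day 6, and 0.198% and 0.0955% at day 8. Neighbouring days overlapped between days 4 and 6, while every day 2 library lay above every later unsorted library. Cells labelled GFP called 0.0887% at day 8 in both libraries and 0.548% and 0.889% at day 10. Cells with doxycycline alone went the other way in time, with 0.792% and 0.904% at day 4 below the day 8 libraries. Quiescent satellite cells called 4.33% and 2.00%, above activated satellite cells at 0.197% and 0.402%. The score counts sharing with 1 group alone, so a region called at day 0 and at day 2 enters neither.

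Within most pairs of replicates the longer list had the larger share, as at day 0, in quiescent and activated satellite cells, in Dox cells and in Dox+FRG cells of days 2, 4 and 8. Day 6 of Dox+FRG was the other way round, and the day 8 GFP lists had equal shares at different lengths. The part of list length in the shares was not tested. Dox day 4 lists held 89871 and 97854 peaks and MN+FRG lists 93086 and 93730, and MN+FRG called 18.7% on average where Dox day 4 called 0.848%. The rule kept Dox day 8 in place for that score, and in the common set described next, chosen without any doxycycline library, Dox day 4 called 9.72% on average. Day 0 lists were shorter than Dox day 4 lists, at 70756 and 67502 peaks, with larger shares. Quiescent satellite cell replicate 2 had 37910 peaks, the fewest of the comparison lists, and a larger share than each Dox+FRG library from day 4 on. Each of these groups was scored on its own set of regions, so contrasts between groups mix list length with the regions scored.

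**Figure D3:**
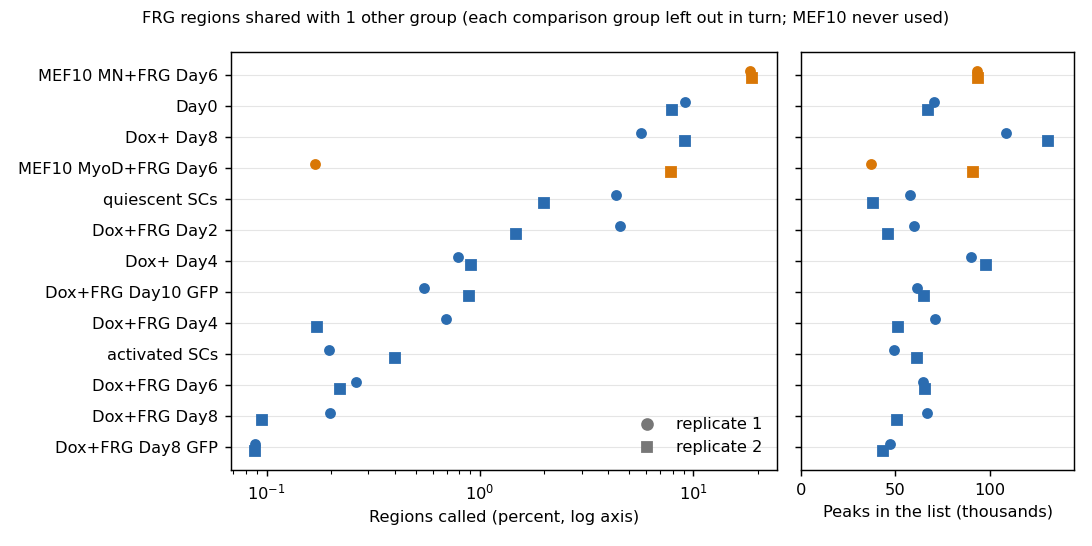
Left, percent of FRG regions called by each library (log axis), on regions chosen without the library's own group; right, peaks in its list (axis in units of 1000). Circles are replicate 1 and squares replicate 2, MEF10 in orange. MN+FRG lies highest at 18.4% and 18.9%, and Dox+FRG day 8 GFP lowest at 0.0887% in both libraries.

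The same question was put to 1 common set, chosen without any doxycycline library. The 43714 regions called in both FRG libraries and in no day 0 or satellite cell library hold all FRG-only regions, which are 66.9% of it. In this set Dox+FRG libraries called 9.75% and 4.62% at day 2, 7.67% and 3.42% at day 4, 5.54% and 5.63% at day 6, and 5.19% and 3.01% at day 8. These ranges overlapped between days, except between days 6 and 8. Their means were 5.55% at day 4 and 5.58% at day 6. The fall at each later day, seen with groups left out in turn, thus did not hold throughout in this set. GFP-labelled cells called 2.93% and 2.51% at day 8 and 5.02% and 5.79% at day 10. Dox cells called 8.93% and 10.5% at day 4 and 14.8% and 20.8% at day 8, so both Dox day 8 libraries lay above both Dox+FRG day 8 libraries. The Dox day 8 lists were longer, at 108663 and 130916 peaks against 67026 and 50608, and the part of list length in this difference was not tested. MN+FRG called 30.1% and 30.5% of the set, a mean 1.71 times that of Dox day 8 with its longer lists. The MN+FRG mean was 3.12 times that of Dox day 4 at a similar list length, though peak width, fibroblast line and day differed. The MN+FRG mean was 5.43 times that of Dox+FRG at day 6, whose lists were shorter at 64823 and 65516 peaks. The part of list length, peak width or line in these ratios was not tested. MyoD+FRG called 2.23% in replicate 1 and 19.1% in replicate 2.

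**Figure D4:**
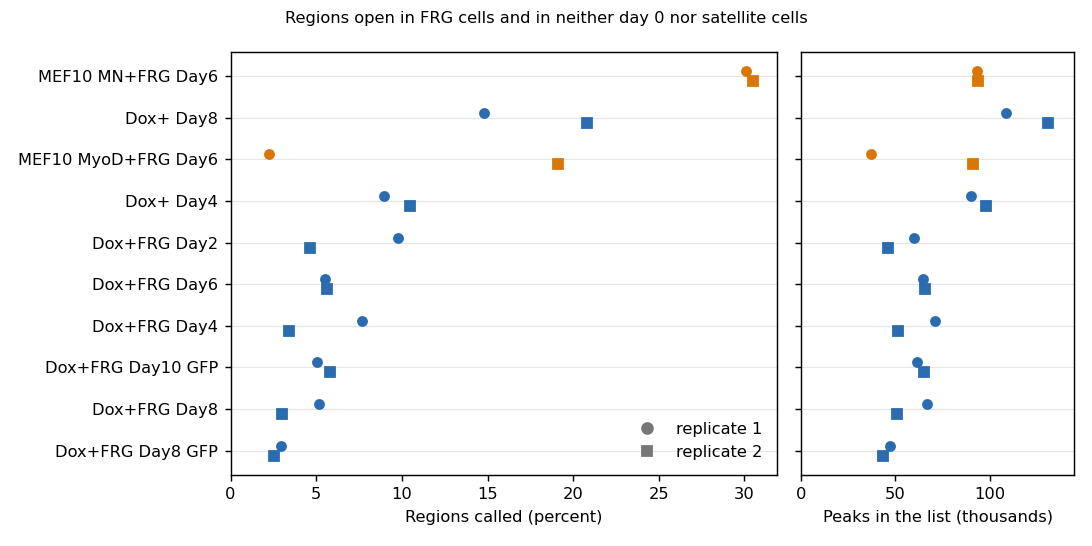
Left, percent of the 43714 regions open in FRG cells and in neither day 0 nor satellite cells that each library called; right, peaks in its list (axis in units of 1000). Circles are replicate 1 and squares replicate 2, MEF10 in orange. MN+FRG lies highest at 30.1% and 30.5%, above Dox day 8 at 14.8% and 20.8%.

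Among the 7410 regions that exactly 1 comparison library kept out of the FRG-only set, a few libraries held most. Dox day 8 replicate 2 was the caller of 1646, or 22.2%, day 0 replicates 1 and 2 of 1201 and 806, Dox+FRG day 2 replicate 1 of 1135 and quiescent satellite cell replicate 1 of 754. Dox+FRG day 8 replicates were the callers of 53 and 23, and the day 8 GFP replicates of 23 each. Activated satellite cell replicate 1 was the caller of the fewest, 14.

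A peak of any comparison library lay within 100 bp of 1.65% of the FRG-only regions, within 200 bp of 2.77% and within 1 kb of 12.4%. Day 0 peaks lay within 1 kb of 1.84% and Dox day 8 peaks of 7.03%. The median distance to the nearest region called in any comparison library was 3352 bp, and that to the nearest region called in both day 0 libraries 11035 bp. Dox-only regions lay at 3150 and 11226 bp by the same measures, where the first counts any other region. Counted in that way, another region called in a comparison library lay within 1 kb of 12.6% of FRG-only, 7.31% of shared FRG and 9.29% of Dox-only regions. Within 200 bp the shares were 2.79%, 1.40% and 2.28%, so FRG-only regions had the largest share of these 3 sets at both distances. From the nearest region called in all 22 comparison libraries, FRG-only regions lay 56.2 kb away in the median, Dox-only regions 46.9 kb and shared FRG regions 38.5 kb.

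The nearest other FRG-only region lay 17.4 kb away in the median, and it lay 21.4 kb from shared FRG regions and 26.8 kb from Dox-only regions. The nearest other region called in both FRG libraries was 4663 bp from FRG-only and 4952 bp from shared FRG regions. Chromosomes differed in the FRG-only part of the regions called in both FRG libraries, from 20.7% of 6376 on chromosome 7 and 21.7% of 4369 on chromosome 17 to 28.1% of 2713 on chromosome X and 28.2% of 4952 on chromosome 14. Of 23904 windows of 100 kb with a region, 13832 held an FRG-only region and 901 held at least 5. The 901 windows held 17.2% of all FRG-only regions.

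The window richest in FRG-only regions lay on chromosome 1 from 90000001 to 90100000 (mm9), where 12 of 17 regions called in both FRG libraries were FRG-only. FRG replicates called 18 and 17 regions in this window, MN+FRG replicates 6 and 4, day 0 replicates 2 and 4, Dox day 8 replicates 3 and 3, and Dox+FRG day 8 replicates 0 in both. The window on chromosome 14 from 23900001 to 24000000 held 10 FRG-only regions of 14, and that on chromosome 15 from 32300001 to 32400000 also 10 of 14. On chromosome 5 from 32100001 to 32200000 and on chromosome 8 from 129600001 to 129700000 there were 9 of 16 each. In the chromosome 8 window Dox libraries were rich in calls too, with 10 and 8 regions at day 4 and 10 and 14 at day 8. MN+FRG called at least 1 FRG-only region in each of these windows but that on chromosome 15, and it called 3 of 9 on chromosome 5. The FRG peaks there were narrow as a rule, and in each window at most 1 FRG-only region had an extended peak in both FRG libraries.

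**Figure D5:**
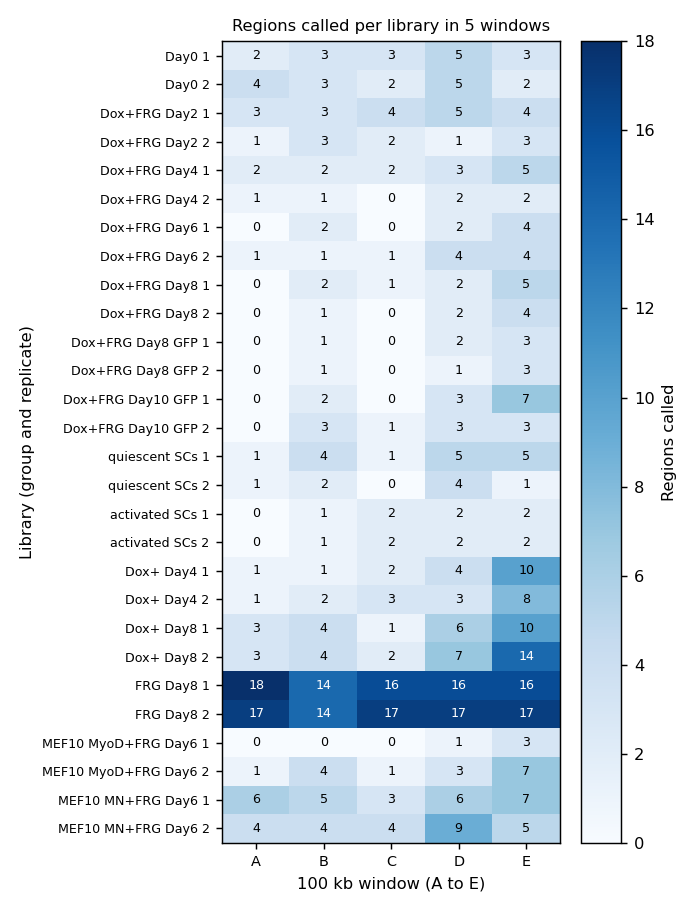
Regions called per library (rows) in the 5 windows of 100 kb with most FRG-only regions (columns A to E, in the order of the text). Colour and number give the count. FRG libraries called 14 to 18 regions in each window, and Dox+FRG day 8 libraries at most 5.

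Single regions show the range. The widest FRG-only region without any MEF10 call lay on chromosome 9 from 117591787 to 117594179 (mm9), with FRG peaks of 2382 and 2380 bp and the nearest region of a comparison library 7485 bp away. The next, on chromosome 10 from 54689809 to 54691872, had FRG peaks of 1979 and 2064 bp and lay 14556 bp from such a region. Broad peaks in both FRG libraries and no peak in the 26 other lists are how these regions were picked. Regions on chromosome 9 from 51820592 to 51822589, chromosome 18 from 34951878 to 34953831 and chromosome 12 from 35900840 to 35902608 had smaller FRG peaks of 1970, 1794 and 1705 bp. Each of these was called in neither MEF10 group by the same choice.

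Among the 30 FRG-only regions that both MN+FRG libraries and MyoD+FRG replicate 1 called, the one with the widest FRG peaks lay on chromosome 18 from 13000364 to 13000953. Its FRG peaks were 537 and 567 bp wide, its MN+FRG peaks 123 and 111 bp and its MyoD+FRG replicate 1 peak 155 bp, each MEF10 peak at the most common width of its list. A region on chromosome 1 from 38611460 to 38611938 had FRG peaks of 434 and 465 bp with MEF10 peaks of those same widths. MyoD+FRG replicate 2 had no peak in either. The region on chromosome 5 from 37663004 to 37663945 had FRG peaks of 846 and 302 bp, and there MyoD+FRG replicate 2 had a peak of 626 bp. On chromosome 1 from 121170052 to 121170512, MN+FRG replicate 2 had an extended peak of 461 bp beside FRG peaks of 276 and 331 bp. The last of the 5, on chromosome 6 from 140292330 to 140292823, had FRG peaks of 210 and 450 bp. These 5 lay 2331 to 7635 bp from the nearest region of a comparison library.

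Within MEF14, the name of regions opened by small molecules alone restates the rule and was not tested. List length, peak width and treatment cannot be told apart there. In MEF10, 24.5% of the regions were called in at least 1 MN+FRG library, against 41.3% of all merged regions, and the labels do not say which factors, if any, those cells received besides FRG.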

How the data were processed

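ATAC-seq peak lists of 28 mouse libraries were used. BWA, HOMER and mm9 are named in the submitters' processing notes. Each deposited list holds chromosome, start and end of the peaks of 1 library, other data than counts, scores or signal. The peak threshold, read filters and tool versions, with any shift of reads, were not given in the sources used here. Per the labels' protocols, 60000 cells entered a reaction, with 13 PCR cycles. Starts are taken as 0-based and printed 1-based.

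Peaks of 27 lists overlapping by at least 1 bp were merged (Python 3.11.15, numpy 2.4.6, pandas 2.3.3, scipy 1.17.1). A library called a region in which it had a peak. Members, comparison sets and measures were chosen with earlier results of these data known. Scoring with a group left out, width classes and the Dox-only comparison were added after the lists were seen. Named regions are the 5 with the largest smaller FRG peak among members called in both MN+FRG libraries and MyoD+FRG replicate 1, the 5 among members without MEF10 call, and the 5 windows with most members, ties by position. Counting was tested on simulated lists. Planned measures of start sites, genes, markers and motifs were not run, since the annotation at hand was GRCm38.p6 and not mm9.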

Additional observations from a re-analysis of the deposited data

How the results depend on the processing

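The count of FRG-only regions stayed within 1.5 times its value except with extended FRG peaks alone, which left 3442 regions. With those, MN+FRG called 27.1% and MyoD+FRG replicate 1 0.261%, 10.3% had a comparison peak within 1 kb, the next region called in both FRG libraries lay 17057 bp away, MN+FRG called 14.2 points more FRG-only than Dox-only regions, and it lay 15.9 points above the highest comparison group scored without itself. Counting comparison peaks within 100 bp gave 11.0% with such a peak within 1 kb, and merging all 28 lists 11.4%. An overlap of 50% of the shorter of peak and region changes nothing by construction, since merged regions contain their peaks. With the peaks of FRG replicate 1 or 2 as regions and 50% overlap between peaks, there were 24691 and 24650 FRG-only regions, MN+FRG called 17.2% and 17.1%, 16.4% were extended in both lists either way, 19.6% and 19.7% had a comparison peak within 1 kb, and the next region lay 5786 and 5803 bp away; the cause was not tested. MyoD+FRG replicate 2 called 7.89% in place of 0.168%. The MN+FRG excess of FRG-only over Dox-only regions was 19.8 points with extended peaks in both libraries of each set and 10.3 points with Dox-only regions also called in both Dox day 4 libraries.

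Leaving out each library in turn gave 29263 to 40936 FRG-only regions, 14.7% to 20.3% called in MN+FRG, 0.124% to 0.244% in MyoD+FRG replicate 1, 11.8% to 14.2% extended, 11.2% to 13.6% with a comparison peak within 1 kb, and distances of 4148 to 4680 bp. The excess over Dox-only regions was 7.68 to 14.7 points and that over the highest comparison group 7.73 to 11.2 points. Autosomes alone moved no value beyond its spread or interval. The labels do not say that replicate numbers pair libraries, and over regions the deviations of same-numbered MN+FRG and MyoD+FRG libraries correlated at r = -0.00101. With the replicate number as a block, an alternative added after the lists were seen, MN+FRG lay 14.3 points above MyoD+FRG in FRG-only minus Dox-only (paired exact sign-flip test over 2 pairs, two-sided p = 0.5, the smallest 2 pairs allow), as without the block (p = 0.333). The lists give no read depth, which limits all statements that a region was not called.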
